A study of Saccharomyces cerevisiae with 8 samples.

Results

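The genes described here encode 10 permeases of the plasma membrane of *Saccharomyces cerevisiae* that bring nitrogen compounds into the cell. They were chosen by systematic name, and all 10 had a row among the 6212 open reading frames (ORFs) of the data. The ammonium permeases are *MEP1* (YGR121C), *MEP2* (YNL142W) and *MEP3* (YPR138C). The amino acid permeases are *GAP1* (YKR039W), which accepts nearly all amino acids, *PUT4* (YOR348C) for proline, *UGA4* (YDL210W) for γ-aminobutyrate (GABA), *AGP1* (YCL025C), of broad specificity, and *GNP1* (YDR508C) for glutamine. *DUR3* (YHL016C) transports urea and *DAL5* (YJR152W) transports allantoate.

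Yeast cells that have a rich nitrogen source keep many genes for the use of poorer sources silent, which is known as nitrogen catabolite repression (NCR). Repression acts through the GATA activators Gln3 and Gat1, which the protein Ure2 and the TOR kinase pathway restrain, and when the source is poor or TOR is inhibited by rapamycin these activators turn on permease and catabolic genes. *AGP1* and *GNP1* are also induced by external amino acids through the SPS sensor of the plasma membrane (Ssy1, Ptr3 and Ssy5). Mep2 is a transporter of high affinity for ammonium and is known as a sensor for filamentous growth.

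The arrays compared log-phase cultures of a mutant with the wild type (wt), each in the BY4741 background and in untreated rich YPD medium at 28 °C. In the *ptc1 ptc6* set the mutant carried *ptc1::NAT* and *ptc6::kanMX4*, and in the *ptc6* set it carried *ptc6::kanMX4* only, so that both mutants lack *PTC6*. Both genes encode protein phosphatases of type 2C. Each set had 4 arrays, which were 2 biological replicates with the dyes exchanged, and the 2 arrays of a dye swap share their RNA, so that n = 2 in each set. BY4741 is a laboratory strain with several auxotrophies, and a strain lacking *PTC1* alone was not analysed here. Values are log2 ratios of mutant over wt, and an ORF has no value on an array where its spot was too small or too dim. The deleted ORFs were low wherever they had a value. *PTC6* (YCR079W) had -3.16 and -4.73 in *ptc1 ptc6* and lay between -2.66 and -2.18 in *ptc6*, and *PTC1* (YDL006W) lay between -3.43 and -1.95 in *ptc1 ptc6* and between -0.13 and 0.41 in *ptc6*.

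The permeases were measured less often than the ORFs of the array at large. In the *ptc1 ptc6* set they had 18 values of 40 possible (45.0%), against 72.4% for all ORFs, and in the *ptc6* set they had 26 of 40 (65.0%), against 80.8%. *MEP3* was the 1 permease with a value on all 8 arrays. *DAL5* had no value on any array and *DUR3* had a single value, 0.53 on the array of *ptc6* experiment 5, so that nothing can be said of the allantoate permease and almost nothing of the urea permease. *GAP1* and *GNP1* had values in the *ptc6* set only. Whether the missing spots were low in mutant RNA, in wt RNA or in both was not tested.

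**Figure D1:**
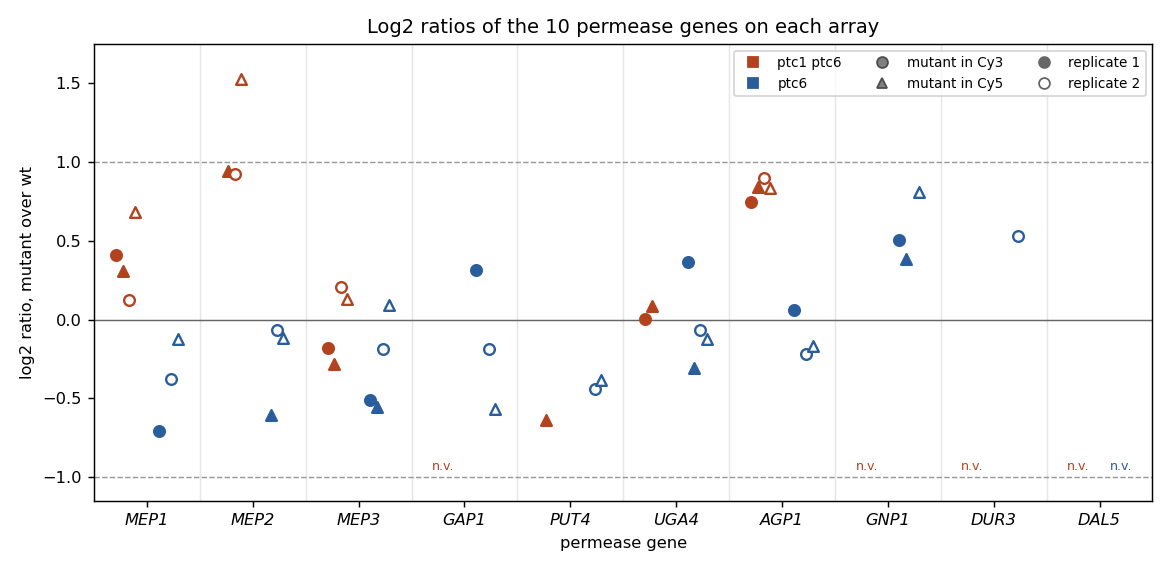
The vertical axis gives the log2 ratio of mutant over wt on each array and the horizontal axis the permease genes, with *ptc1 ptc6* left of *ptc6* within each gene. Circles and triangles stand for the mutant in Cy3 or Cy5, filled and open symbols for biological replicates 1 and 2, dashed lines for a 2-fold change, and n.v. for no value. *MEP2* and *AGP1* lie between 0.75 and 1.53 in *ptc1 ptc6*, whereas their *ptc6* values lie between -0.60 and 0.06.

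In *ptc1 ptc6* cells the mRNAs of the ammonium permease gene *MEP2* and of the amino acid permease gene *AGP1* were higher than in wt, by about 2-fold. *MEP2* also passed the 2-fold rule of the study's methods, which asks for a mean of at least 1 or at most -1 over the arrays and for values on at least 2 of 4 arrays. It was the 1 permease to do so among 5 with enough data, where 1.68% of 4754 genes were higher by this rule. In limma, a test across all genes with Benjamini-Hochberg adjustment, 4 permeases could be tested in *ptc1 ptc6* and 2 were higher at an adjusted p under 0.05, where 5.64% of 4596 genes tested were higher. The members were chosen with the value of *MEP2* known, so that these counts are a description.

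*MEP2* had log2 ratios of 0.95, 0.93 and 1.53 in *ptc1 ptc6* (experiments 2, 3 and 4), and of -0.60, -0.06 and -0.12 in *ptc6* (experiments 2, 5 and 6). All values of the double mutant lay above all values of the single mutant. Its mean in *ptc1 ptc6* was 1.09 ± 0.20 (SD, n = 2), that is 2.12-fold, with an adjusted p of 0.0270 in limma and 98.7% of the genes tested below it. The highest value, 1.53, came from an array with *ptc1 ptc6* RNA in Cy5, and the array of the same replicate with that RNA in Cy3 gave 0.93. With the arrays in Cy3 alone no permease passed the 2-fold rule, since *MEP2* has only the value of 0.93 there. In each set, replicate 1 of *MEP2* had a value only from experiment 2, with the mutant in Cy5, so that no dye swap was averaged there.

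*AGP1* was steadier, with 0.75, 0.85, 0.90 and 0.84 in *ptc1 ptc6* (experiments 1 to 4), against 0.06, -0.22 and -0.17 in *ptc6* (experiments 1, 5 and 6). The groups did not overlap, and the arrays of the double mutant spanned less than those of *MEP2*. The mean in *ptc1 ptc6* was 0.83 ± 0.05 (SD, n = 2), or 1.78-fold, with an adjusted p of 0.0241 in limma, and 97.6% of the genes tested lay below it. Scaling the arrays to equal spread ended both calls, with an adjusted p of 0.0959 for *MEP2* and of 0.113 for *AGP1*, and left 17 calls over all genes.

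The other ammonium permease genes did not follow *MEP2* to the same extent. *MEP1* had 0.41, 0.31, 0.12 and 0.68 in *ptc1 ptc6* (experiments 1 to 4), and -0.71, -0.38 and -0.13 in *ptc6* (experiments 1, 5 and 6). Every value of the double mutant was above 0 and every value of the single mutant below it. The mean in *ptc1 ptc6* was 0.38 ± 0.03 (SD, n = 2), with an adjusted p of 0.103 in limma that ranged from 0.0298 to 0.424 over the fits. It passed with all 8 arrays in a random block, with *ptc1 ptc6* fitted alone and with values required on 4 of 4 arrays. In these fits 28.7%, 18.5% and 24.5% of all genes tested passed in either direction, against 14.1% in the main fit. *MEP3*, which encodes a transporter of low affinity and high capacity, had -0.18, -0.28, 0.21 and 0.13 in *ptc1 ptc6*, and -0.51, -0.56, -0.18 and 0.09 in *ptc6*. Here the groups overlapped. Its mean in *ptc1 ptc6* was -0.03 ± 0.28 (SD, n = 2), with a 95% confidence interval from -0.41 to 0.35. *MEP1* and *MEP3* are close paralogues, and since the arrays carry whole amplified ORFs, signal shared between them cannot be told apart.

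In *ptc6* cells none of the permeases passed either test. Of 8 with enough data, 0 were past 2-fold in either direction, where 0 of 5461 genes were higher and 3 lower by this rule. Of 7 tested in limma 0 passed, where 0% of 4824 genes passed in either direction. At an unadjusted p under 0.05 there were 2 of the 7 permeases, where 8.00% of all genes tested had one. These were *MEP1* and *GNP1*, which lay on opposite sides of wt. *MEP1* averaged -0.48 ± 0.32 (SD, n = 2), with 1.20% of the genes tested below it. *MEP2* averaged -0.35 ± 0.36 and *MEP3* -0.29 ± 0.34 (SD, n = 2), with 2.59% and 4.79% of the genes below them. The adjusted p of the 3 ammonium permease genes was between 0.602 and 0.651 in limma.

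For each of the 3 *MEP* genes, replicate 1 gave the lower mean in *ptc6*. It was -0.71 against -0.25 in replicate 2 for *MEP1*, -0.60 against -0.09 for *MEP2*, and -0.53 against -0.05 for *MEP3*. The size of these means thus rests largely on replicate 1. For *MEP1* it was 1 array (experiment 1, mutant in Cy3), as for *MEP2* (experiment 2, mutant in Cy5). Without replicate 1 *MEP1* had -0.25, *MEP2* -0.09 and *MEP3* -0.05. *GNP1* was the 1 tested permease above wt, with 0.50, 0.38 and 0.81 on the arrays of *ptc6* experiments 1, 2 and 6. Its mean was 0.63 ± 0.26 (SD, n = 2), which was rank 9 from the highest of the 4824 genes tested, yet its adjusted p in limma was 0.602 and ranged from 0.125 to 0.602 over the fits. *GNP1* had no value in *ptc1 ptc6*.

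The remaining amino acid permeases showed no common direction. *GAP1* had 0.31 in replicate 1 of *ptc6* and -0.19 and -0.57 in replicate 2, so that its mean of -0.03 ± 0.49 (SD, n = 2) averages replicates that lie on either side of 0. *UGA4* had 0.00 and 0.09 in *ptc1 ptc6*, both from replicate 1, and 0.37, -0.31, -0.07 and -0.12 in *ptc6*. Its values in the double mutant lay within those of the single mutant. *PUT4* had -0.63 in *ptc1 ptc6* (experiment 2), and -0.44 and -0.38 in *ptc6*, both from replicate 2. All 3 values were below wt, but each set had them from 1 replicate only, so that they were not tested. *AGP1* itself averaged -0.07 ± 0.18 (SD, n = 2) in *ptc6*, with replicate means of 0.06 and -0.19. *AGP1* and *GNP1* are paralogues as well, with the same limit as for *MEP1* and *MEP3*.

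**Figure D2:**
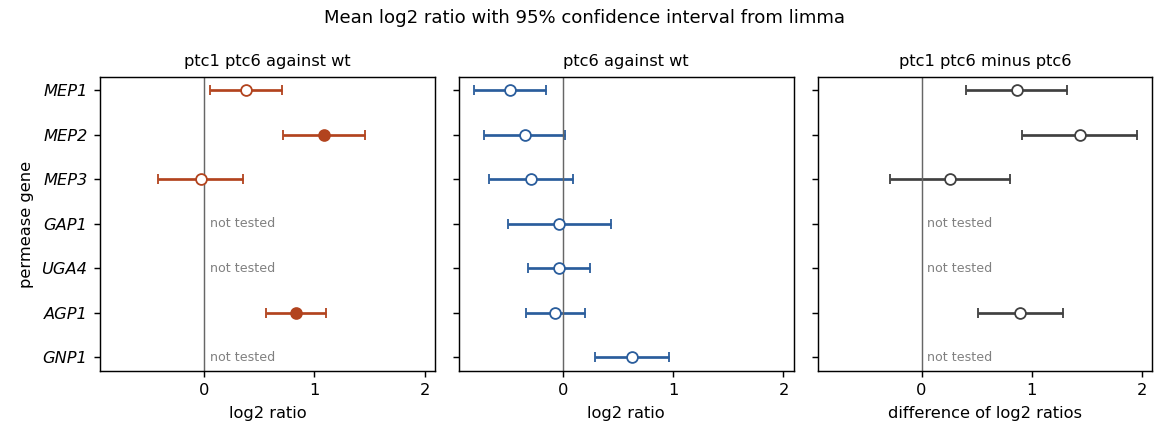
Points are mean log2 ratios from limma for *ptc1 ptc6* against wt, *ptc6* against wt, and the difference between the mutants, with 95% confidence intervals along the horizontal axis and a permease gene in each row. Filled points had an adjusted p under 0.05, which were *MEP2* and *AGP1* in *ptc1 ptc6*. The intervals of the difference lie above 0 for *MEP1*, *MEP2* and *AGP1*, and that of *MEP3* spans 0.

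The comparison of the mutants asks what the loss of *PTC1* adds in cells without *PTC6*. The difference could be tested for 4 permeases, and all 4 had a higher mean ratio in *ptc1 ptc6* than in *ptc6*, as had 1698 of 4361 genes. *UGA4* and *PUT4* also had values in both sets but not from both replicates of *ptc1 ptc6*, and over the arrays *UGA4* averaged 0.04 in *ptc1 ptc6* and -0.03 in *ptc6*, and *PUT4* -0.63 in *ptc1 ptc6* and -0.41 in *ptc6*. For 3 of these 4 every array of the double mutant lay above every array of the single mutant, which was so for 7.43% of 4361 genes. The difference was 1.43 on the log2 scale for *MEP2* (SE 0.22, 95% confidence interval from 0.91 to 1.96), 0.90 for *AGP1* (SE 0.16, interval from 0.51 to 1.28), 0.86 for *MEP1* (SE 0.19, interval from 0.40 to 1.32) and 0.26 for *MEP3* (SE 0.23, interval from -0.28 to 0.80). A larger ratio of *MEP2* in the double mutant and a ratio below wt in the single mutant both enter its difference.

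Adjusted over all genes, 0 of the 4 differences passed in limma, where 0.161% of 4361 genes were higher. The adjusted p was 0.0800 for *MEP2*, 0.0966 for *AGP1* and *MEP1*, and 0.500 for *MEP3*, and 3 of the 4 had an unadjusted p under 0.05, as had 24.3% of all genes tested. The call depended on how the arrays entered the fit. Where all 8 arrays entered and those of a replicate shared a random block, *MEP2*, *AGP1* and *MEP1* passed (adjusted p of 0.00525, 0.00312 and 0.0162), where 5.53% of the genes were higher. That fit takes the arrays of a dye swap as separate observations, with 1 correlation for all genes, although each set had only 2 biological replicates. Without *ptc1 ptc6* replicate 1, *MEP2* and *AGP1* passed (adjusted p of 0.00160 and 0.0499), and without *ptc1 ptc6* replicate 2, *MEP2* passed (0.0181), where 2.29% and 1.32% of the genes were higher. In these fits the double mutant has 1 replicate, which is assumed to vary like those of *ptc6*. Without *ptc6* replicate 1 the differences were 1.18 for *MEP2*, 1.02 for *AGP1*, 0.63 for *MEP1* and 0.02 for *MEP3*. Without *ptc6* replicate 2 they were 1.69, 0.77, 1.09 and 0.50, in the same order. The single mutant has 1 replicate there, so that passing or not cannot set the permeases apart from other genes. The sets were hybridised separately, so that a difference between mutants and a difference between the sets cannot be told apart.

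Genes that act with the permeases were examined as 5 further lists. All were written by function, but with earlier results of these data known, so that their counts are a description. Of 12 regulators of NCR, 8 were tested in *ptc1 ptc6* and 0 passed in limma, where 14.1% of all genes tested passed in either direction. With 8 genes this count does not set the list apart. *TIP41* (YPR040W), which encodes a partner of Tap42 in TOR signalling, was the 1 with an unadjusted p under 0.05, at -0.28 ± 0.05 (SD, n = 2; adjusted p of 0.115), where 34.0% of all genes tested had one. It was named after its value had been seen, as were all genes below that had only an unadjusted p under 0.05. The median log2 ratio of the 8 regulators was 0.08, against -0.05 for all genes tested. *GLN3* (YER040W), which encodes the main GATA activator, had 0.58, -0.12, -0.17 and -0.07 in *ptc1 ptc6* and averaged 0.06 ± 0.25 there and -0.09 ± 0.20 in *ptc6* (SD, n = 2). *GAT1* (YFL021W) averaged 0.19 ± 0.11 and -0.11 ± 0.38, and *URE2* (YNL229C) 0.23 ± 0.13 and 0.10 ± 0.19, in *ptc1 ptc6* and in *ptc6* (SD, n = 2). The GATA repressor gene *DAL80* (YKR034W) had no value.

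The enzymes that break down the imported compounds or form glutamate and glutamine included more genes past the threshold. Of 18, 13 were tested in *ptc1 ptc6*, with 5 higher and 1 lower, where 5.64% of all genes were higher and 8.49% lower. Since this list too was written with earlier results known, the counts are a description. The median of the 13 genes was 0.49. *PUT1* (YLR142W), which encodes proline oxidase, had 1.70, 0.62 and 0.93 on 3 arrays and a mean of 1.24 ± 0.65 (SD, n = 2). *UGA2* (YBR006W), for succinate semialdehyde dehydrogenase of the GABA pathway, had 1.02, 1.24, 1.02 and 1.17, with a mean of 1.11 ± 0.03. *GDH2* (YDL215C), for the glutamate dehydrogenase that releases ammonium, and *DUR1,2* (YBR208C), for urea amidolyase, each averaged 0.90, with an SD of 0.11 and 0.55. The fifth was the arginase gene *CAR1* (YPL111W), with 0.88 ± 0.17 in *ptc1 ptc6* and 0.60 ± 0.42 in *ptc6*. The lower gene was *GLT1* (YDL171C), for glutamate synthase, with -0.74 ± 0.07 in *ptc1 ptc6* and with -0.64 and -0.72 in replicate 1 of *ptc6*, the 1 replicate with values there. *CAR1* and *GLT1* were named after their values had been seen. The adjusted p in *ptc1 ptc6* of the 6 genes in limma was between 0.0270 and 0.0446.

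Permease and enzyme of the same pathway could thus be set side by side on a few arrays. In *ptc1 ptc6* experiment 2, the proline permease gene *PUT4* had -0.63 and *PUT1* had 1.70. In *ptc1 ptc6* experiments 1 and 2, the GABA permease gene *UGA4* had 0.00 and 0.09 and *UGA2* had 1.02 and 1.24. In both pathways the enzyme gene was above 2-fold on these arrays while the permease gene was not, although the spots for the permeases were few. In *ptc6*, 13 enzyme genes were tested and 0 passed in limma (*DAL1*, *DAL7*, *DCG1*, *CAR1* and *GDH1* had an unadjusted p under 0.05, that is 5 of 13, where 8.00% of all genes had one), with a median of 0.01, against 0.02 for all genes tested. *UGA2* had 0.57 and 0.19 in replicate 1 of *ptc6* and -0.60 and -0.42 in replicate 2.

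**Figure D3:**
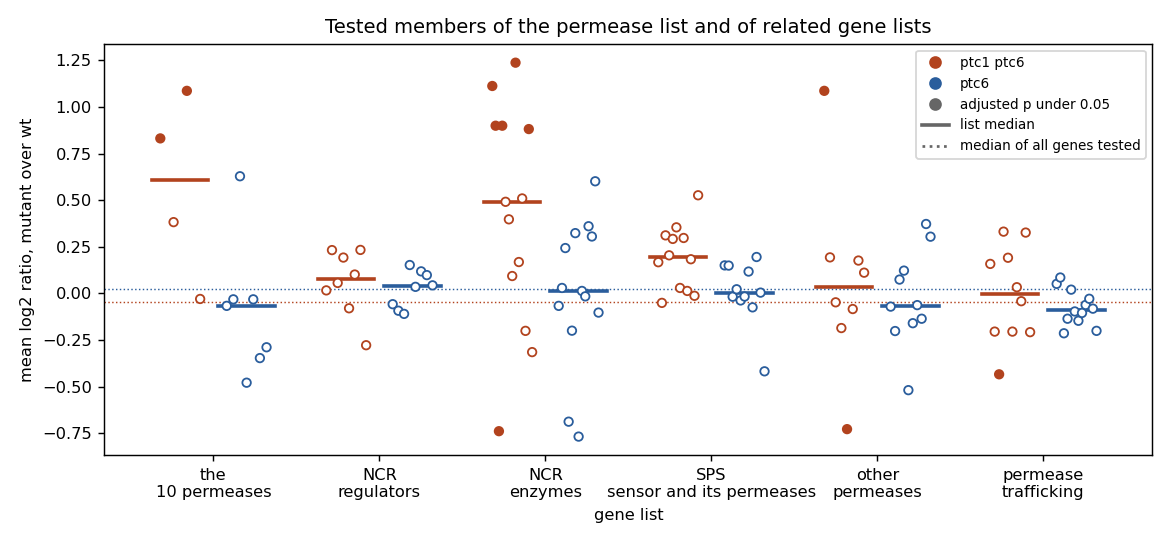
Each point is the mean log2 ratio of mutant over wt of a tested gene, grouped along the horizontal axis by gene list, with *ptc1 ptc6* left of *ptc6*. Filled points had an adjusted p under 0.05 in limma, thick bars are list medians and dotted lines the medians of all genes tested (-0.05 in *ptc1 ptc6* and 0.02 in *ptc6*). Filled points occur in *ptc1 ptc6* only. The highest medians there are those of the permeases (0.61, with 4 of 10 tested) and of the NCR enzymes (0.49, with 13 of 18 tested). Both lists were chosen with earlier results of these data known.

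The SPS sensor and the permeases it controls apart from *AGP1* and *GNP1* gave 12 genes, all tested in *ptc1 ptc6*. In limma 0 passed, where 14.1% of all genes tested passed in either direction, and the median was 0.19. An unadjusted p under 0.05 was found for 5 of the 12, a share close to the 34.0% of all genes. These were *PTR3* (YFR029W) of the sensor itself, *STP1* (YDR463W) and *STP2* (YHR006W), for the transcription factors that the sensor releases, and the permease genes *BAP3* (YDR046C) and *DIP5* (YPL265W), with means between 0.29 and 0.53 and adjusted p between 0.0511 and 0.100. The dicarboxylic amino acid permease gene *DIP5* had 0.35, 0.27, 0.86 and 0.62 in *ptc1 ptc6*, and -0.44, -0.58, -0.37 and -0.29 in *ptc6*. Its signs in the mutants were those of *MEP1* and *MEP2*, and its groups did not overlap. The difference was 0.94 (SE 0.19) with an adjusted p of 0.0966 in limma, the value shared with *AGP1* and *MEP1*.

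Of 13 further permeases, 8 were tested in *ptc1 ptc6*, with 1 higher and 1 lower in limma and a median of 0.03. Shares of 5.64% higher and 8.49% lower over all genes would give about as many among 8, so that the counts do not set the list apart. *AGP2* (YBR132C), which encodes a plasma membrane regulator and transporter of polyamines and carnitine, had 0.84, 0.71, 1.07 and 1.74 in *ptc1 ptc6*, and -0.06, -0.26 and -0.44 in *ptc6*. Its mean in *ptc1 ptc6* was 1.09 ± 0.45 (SD, n = 2), close to that of *MEP2*, and its groups did not overlap. The glutathione and oligopeptide transporter gene *OPT1* (YJL212C) was lower, with -0.73 ± 0.07 (SD, n = 2) in *ptc1 ptc6* and -0.06 ± 0.11 in *ptc6*. Of 12 genes for permease traffic, 10 were tested in *ptc1 ptc6* and 1 was lower in limma, about as many as the 8.49% over all genes would give. This was *RSP5* (YER125W), for the ubiquitin ligase that sends permeases to the vacuole, which was lower, at -0.43 ± 0.01 (SD, n = 2; adjusted p of 0.0465). The Npr1 kinase, which keeps Gap1 and Mep2 active at the surface, belongs to this list, and *NPR1* (YNL183C) averaged 0.33 ± 0.37 in *ptc1 ptc6* and -0.08 ± 0.16 in *ptc6* (SD, n = 2), with an adjusted p of 0.184 and 0.906. In *ptc6*, 0 genes of these lists passed in limma, where *DIP5* and the permease genes *LYP1* (lysine), *SAM3* (S-adenosylmethionine) and *MUP3* (methionine) had an unadjusted p under 0.05, that is 4 of 33, where 8.00% of all genes had one.

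The genes most like *MEP2* were sought among 3670 ORFs with values on the same 6 arrays, by the root mean square difference of their log2 ratios. The closest was *ALD2* (YMR170C), for a cytosolic aldehyde dehydrogenase, at 0.15. It had 0.89, 1.00 and 1.22 in *ptc1 ptc6*, and -0.51, -0.21 and -0.12 in *ptc6*. *BDH2* (YAL061W), *PDE1* (YGL248W), for a cyclic AMP phosphodiesterase, *TGL2* (YDR058C), for a lipase, and *KTD1* (YAR028W) followed, at 0.27 to 0.30. None of the 5 is a permease gene. *MEP3*, the 1 other member with values on all 6 arrays, stood at 0.82 and had rank 894. The measure of likeness covers 6 arrays from 4 cultures, and it says only that the ratios were alike.

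**Figure D4:**
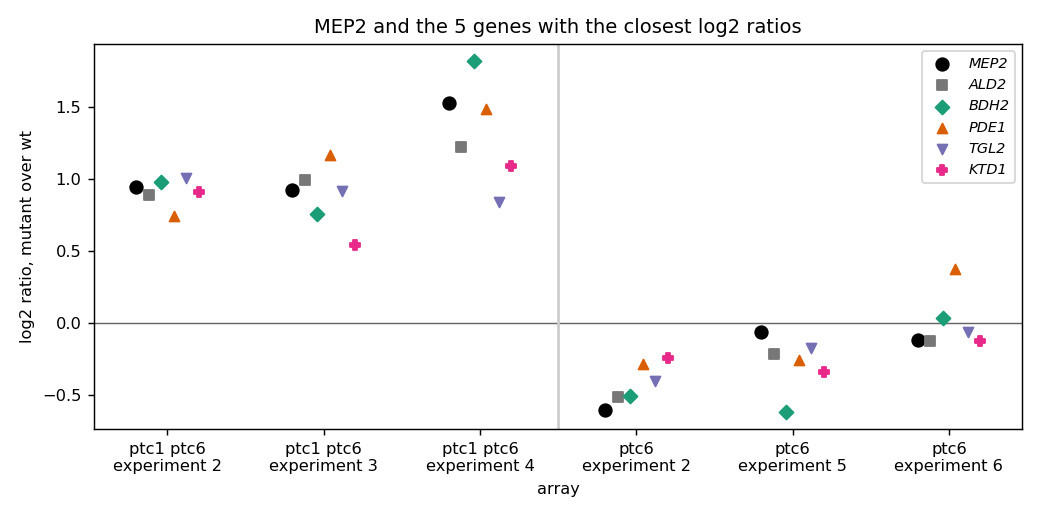
The vertical axis gives the log2 ratio of mutant over wt of *MEP2* (black circles) and of the 5 genes closest to it, on the 6 arrays where *MEP2* had a value, with the *ptc1 ptc6* arrays left of the *ptc6* arrays. For *ptc1 ptc6* experiment 4 *MEP2* had 1.53 and the others between 0.838 and 1.815, and on the *ptc6* arrays most points lie below 0.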

How the data were processed

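The authors labelled cDNA with Cy3 and Cy5, hybridised it to arrays of amplified ORFs, scanned them, left out spots that were small or dim, and pre-processed the ratios with GEPAS. The deposited values are log2 ratios per ORF and array, and the normalization within arrays is not given in the sources used here. Base and direction are unstated in the table. Base 2 was taken from the 2-fold rule of the methods, and mutant over wt from the low values of the deleted ORFs. Array medians lay between -0.10 and 0.03, and 4050 to 5537 ORFs had a value per array. No signal of single channels was used, so that spots could not be judged against background, and the number of arrays limits the precision.

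Symbols came from the RefSeq gene table of assembly R64 (5662 of 6212 names matched). Both arrays of a dye swap were averaged to 1 replicate mean. Where only 1 of them had a value, that array alone stood for the replicate, without the exchange of dyes. Group means were estimated from the 4 replicate means by limma (version 3.58.1, R 4.3.3, lmFit and eBayes), tested on simulated data beforehand. Testing in a set needed values on 2 or more of its 4 arrays, and from both replicates. Tests were two-sided, with adjustment over all genes tested and a threshold of 0.05. The labels do not say whether replicates used separate wt cultures, so that p-values measure the spread between these hybridisations only. The rule for naming took all 10 permeases, up to 4 genes past the threshold per list, 4 regulators, the deleted genes and the 5 genes closest to *MEP2*, and other genes were named after their values had been seen. The members and lists were chosen with earlier results of these data known. Alternatives covered centring, scaling, blocks, separate fits, missing values, dyes and replicates.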

Additional observations from a re-analysis of the deposited data

Results flagged for a closer look

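Among 24 groups of 4 arrays for the permeases and the pathway genes named with values, an array stood far from the other 3 in 1 group, where chance gives about 1.20. In *ptc1 ptc6* experiment 1 *GLN3* had 0.576, whereas the other 3 values of that mutant lay between -0.17 and -0.07. Without biological replicate 1, which holds that array, the *ptc1 ptc6* value is the replicate 2 mean of -0.12.

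For 3 genes of nitrogen breakdown every *ptc1 ptc6* value was above 0 and every *ptc6* value below it, in cases where the difference was not tested because *ptc6* or *ptc1 ptc6* had values from 1 biological replicate only. The same held for 57 of 364 genes (15.7%) that had 2 or more values in each set and could not be tested for the difference. The difference between the means over arrays was 1.347 for *DUR1,2*, 1.285 for *GDH2* and 1.02 for *DAL7* (YIR031C), all on the log2 scale. *DUR1,2* had 0.51, 1.24 and 1.345 in *ptc1 ptc6*, and -0.17 and -0.47 in *ptc6*. *GDH2* had 1.07, 0.58, 1.00 and 0.95 in *ptc1 ptc6*, and -0.43 and -0.35 in *ptc6*.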

How the results depend on the processing

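Of the counts of permeases recomputed under the alternatives, 36 were unchanged or within 1.5 times and 10 moved further. Of the values of single permeases, 117 counted as unchanged, 17 newly passed and 2 no longer passed. In a fit, unchanged means the same direction and side of the threshold. For arrays of 1 dye, which had no test, it means within the replicate SD, whatever the sign. Of the values from arrays of 1 dye, 6 moved beyond this SD, and of those from fits 4 changed sign. With the mutant in Cy3 only, *GAP1* (0.062) and *UGA4* (0.150) in *ptc6* and *MEP3* (0.015) in *ptc1 ptc6* also changed sign. The alternatives overlap, since leaving out a replicate of one mutant leaves the other fitted alone. Past 2-fold in *ptc1 ptc6* there was 1 permease, *MEP2*, and 0 with arrays scaled to equal spread and with the mutant in Cy3 only. With values required on 4 of 4 arrays, *MEP2* did not enter, since it had 3. Of the 3 permeases that did enter, 0 were past 2-fold. With *ptc1 ptc6* replicate 1 or 2 left out, *MEP2* had 1.227 or 0.945. In limma, the calls in *ptc1 ptc6* fell to 0 of 4 with scaling. In the difference between the mutants, 0 of 4 passed, against 3 with all 8 arrays and a random block, 3 with the replicate number as a block, and 0 to 2 when a replicate was left out (2 without *ptc1 ptc6* replicate 1 and 1 without replicate 2). Same-numbered replicates deviated in opposite directions across 4361 genes (r = -0.21), so that the numbers do not pair the samples, and a crossed pairing, added after the data had been seen, also gave 3 calls. Over all genes the difference gave 9 calls, 268 with the replicate block and 482 with the crossed pairing.

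*MEP3* in *ptc1 ptc6* had 0.028 with arrays centred, 0.013 with scaling and -0.23 to 0.17 when a replicate was left out, against -0.03, and *AGP1* in *ptc6* had -0.19 to 0.06, against -0.07, none past the threshold. *MEP1* in *ptc1 ptc6* passed with all 8 arrays, with each group alone and with 4 of 4 arrays. In these fits 28.7%, 18.5% and 24.5% of all genes tested passed. The fits without a *ptc6* replicate are the same as *ptc1 ptc6* alone. Over all genes, *ptc1 ptc6* had 649 calls, 17 with scaling, 1321 with all 8 arrays and 136 without *ptc1 ptc6* replicate 2, and centring turned 259 higher and 390 lower into 303 and 264. The causes were not tested. With values from 18 of 40 *ptc1 ptc6* spots, changes of *GAP1*, *GNP1*, *DUR3* and *DAL5* could not be measured there.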

Other observations

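The 6 genes of the allantoin cluster, named here after their values had been seen, moved in no common direction in *ptc6*. *DAL1* (YIR027C), for allantoinase, had -0.97, -0.71 and -0.11 in *ptc6* and no value in *ptc1 ptc6*. *DAL7* (YIR031C), for a malate synthase, had 0.33 and 0.53 in *ptc1 ptc6*, and -1.30, -0.20 and -0.28 in *ptc6*. *DCG1* (YIR030C) lay above wt on its 3 arrays of *ptc6*, between 0.23 and 0.37, and had a single value of -0.12 in *ptc1 ptc6*. *DAL2* (YIR029W), for allantoicase, spanned -0.43 to 0.63 in *ptc1 ptc6* and -0.52 to 0.31 in *ptc6*. *DAL4* (YIR028W), for the allantoin permease, lay between -0.35 and -0.11 in *ptc1 ptc6* and between -0.34 and -0.02 in *ptc6*, and *DAL3* (YIR032C) had no value in *ptc1 ptc6* and -0.26 and 0.01 in *ptc6*. None of the 5 genes tested in *ptc6* or of the 2 tested in *ptc1 ptc6* passed in limma. At an unadjusted p under 0.05 there were 3 of the 5 in *ptc6* (*DAL1*, *DAL7* and *DCG1*), where 8.00% of all genes tested had one. In *ptc1 ptc6* there were 0 of the 2, where 34.0% of all genes tested had one.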
